A study of Mus musculus with 8 samples.

Results

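The genes described here encode the proteins of the cytosolic ribosome. They were chosen by name: every gene whose symbol follows the Rps, Rpl, Rplp or Rpsa pattern, leaving out the Rps6k kinases and names of numbered pseudogenes. Of 55487 genes in the files 89 matched, and 85 were kept, since they had a TPM of 1 or more in 2 or more of the 8 libraries, a filter that 12511 genes passed and that fixed the genes tested. TPM is a length-scaled share of all assigned RNA in a library. The kept genes are 77 core genes, 3 paralogs (Rpl7l1, Rpl22l1, Rps27l) and 5 genes annotated as pseudogenes although their symbols fit the pattern (Rpl32l, Rpl6l, Rps3a2, Rps3a3, Rps4l). By subunit 35 belong to the small one, 47 to the large one and 3 to the stalk. The 4 left out were Rpl10l, Rpl3l, Rpl39l and Rps12l1, at 0 or below a TPM of 1 in every library. Fau also encodes a ribosomal protein but carries another name, and is given with the related lists.

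RNA was sequenced from 2 populations sorted from C57BL/6J mouse bone marrow, pre-Baso and basophils, each from wild-type littermates (control) and from mice in which floxed Nfil3 had been removed (deficient). Nfil3 encodes a DNA-binding regulator with a basic leucine zipper. Both populations were gated as Lineage-, CD34-, ckit- and CD200R3+ cells, pre-Baso with high and basophils with intermediate staining by MAR1, an antibody to the IgE receptor alpha chain. The 4 groups hold 2 libraries each, which the design text calls biological duplicates. The labels name neither the Cre driver nor the age of the mice, nor whether animals were pooled. If the 2 libraries of a group do not come from separate mice, p-values measure only the spread between these samples.

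Ribosomal proteins are made in near-equal numbers, since each ribosome needs 1 copy of nearly all of them. Their mRNAs are short and abundant, and most begin with a cytosine followed by a run of pyrimidines, the terminal oligopyrimidine (TOP) motif, through which mTOR and the RNA-binding protein Larp1 control their translation. Myc and mTOR raise ribosome production in growing cells, and blood cell formation is sensitive to the loss of single ribosomal proteins, as in Diamond-Blackfan anaemia. Basophils are granulocytes of the IgE response, and pre-Baso are their precursors in the marrow.

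The start-site windows of 8 members are shown because the results below turn on these genes and because the pyrimidine run is the feature that TOP mRNAs share. Each line holds 50 bases of RefSeq promoter sequence (GRCm38.p6), 25 on each side of the annotated transcription start, 5′ to 3′ on the coding strand. Capitals mark the longest pyrimidine run that touches the stretch from 5 bases before to 10 bases after the start. In Rps27l this run lies wholly before the annotated start. The first 5 rose and Rpl22l1 and Rpl15 fell with maturation in control mice, and Rps27l is the paralog of Rps27.
Rps9 (chr7:3704016-3704065, + strand): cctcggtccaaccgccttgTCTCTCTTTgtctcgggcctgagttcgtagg
Rps27 (chr3:90213624-90213673, - strand): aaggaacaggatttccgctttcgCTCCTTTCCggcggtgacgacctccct
Rpl38 (chr11:114668555-114668604, + strand): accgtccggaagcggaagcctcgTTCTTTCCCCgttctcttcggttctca
Rpl27a (chr7:109519170-109519219, + strand): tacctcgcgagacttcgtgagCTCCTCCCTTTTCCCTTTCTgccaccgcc
Rpl13a (chr7:45128721-45128770, - strand): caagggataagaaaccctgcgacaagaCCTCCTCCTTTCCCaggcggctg
Rpl22l1 (chr3:28805483-28805532, + strand): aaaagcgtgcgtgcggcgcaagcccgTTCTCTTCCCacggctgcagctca
Rpl15 (chr14:18270962-18271011, - strand): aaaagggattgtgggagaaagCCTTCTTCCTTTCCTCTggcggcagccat
Rps27l (chr9:66946061-66946110, + strand): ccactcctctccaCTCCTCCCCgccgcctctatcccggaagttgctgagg

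The runs shown are 9 to 20 bases long, and genes that rose and genes that fell both carry one. RefSeq windows were found for 60 of the 80 core genes and paralogs, 71 windows in all because some genes have several starts. A run of at least 6 pyrimidines that touches the stretch from 5 bases before to 10 bases after the start was present in 49.3% of these windows and in 24.4% of all 32851 windows. Over the whole 300-base window, 250 bases before to 50 after the start and on both strands, CCGGAAG, the core of the GABP motif, was present in 36.6% against 8.86%. AAGATGG, the core of the YY1 motif, was present in 16.9% against 6.34%. CTTTC, which can lie inside a pyrimidine run, was present in 81.7% against 57.3%. A match describes the letters of a window and is not evidence of binding.

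The ribosomal protein genes were among the most abundant mRNAs in all 8 libraries. Their median TPM was 246.6, and the median of tested protein-coding genes was 4.28. All but 1 had a TPM of at least 1 in all 8 libraries. The exception was Rpl23a, a large-subunit protein near the exit tunnel, listed at 0 in the second deficient pre-Baso and the first deficient basophil library and between 31.8 and 151.8 TPM in the other 6. A listed 0 for a gene that every cell uses can be a failed estimate, so Rpl23a is given by its values only.

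The highest member in every library was Rps27, a small-subunit protein, with a mean over the 8 libraries of 1754 TPM. Rpl13a (1432 TPM), Rps14 (1427.5 TPM), Rps28 (1100.2 TPM) and Rps29 (1044 TPM) followed, and 4 of these 5 belong to the small subunit. The lowest were the pseudogene Rps4l (2.44 TPM), the paralog Rpl7l1 (10.3 TPM) and the core genes Rps15a (27.9 TPM), Rpl21 (29.8 TPM) and Rpl7a (30.5 TPM). The gap between the highest and lowest core genes goes together with reads listed under pseudogenes, described below.

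Library facts that touch these values were as follows. Assigned bases came to 271.7 to 398 megabases per library, protein-coding genes took 18.7% to 22.4% of TPM, and ribosomal RNA took 28.9% to 33.1% of assigned bases. The files give no read counts, so no counting error can be stated. Nfil3 stood at 6.61 and 7.65 TPM in control pre-Baso and 20.5 and 22.5 TPM in control basophils, and at 0 to 1.32 TPM in the 4 deficient libraries, so it was low in every library labelled deficient. The 10 basophil markers summed to 5269 to 35078 TPM and were present in every library, although Mcpt8 stood at 1.98 to 6.04 TPM in the deficient ones. Eosinophil markers summed to 2570 TPM in the first control basophil library and to 14.7 to 184.7 TPM in the other 7, so this library stands apart, and the calls that end without it are given below.

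The members' summed share of protein-coding TPM was lowest in control pre-Baso. Over the 80 core genes and paralogs it was 12.5% and 12.2% in control pre-Baso, 14.9% and 13.9% in deficient pre-Baso, 15.7% and 16.04% in control basophils, and 17.3% and 15.2% in deficient basophils. The 2 control pre-Baso libraries lay below the other 6, and the 2 deficient pre-Baso libraries lay below all 4 basophil libraries. The basophil groups of the 2 genotypes overlapped. Small-subunit genes took 6.11% to 8.62%, large-subunit genes 5.36% to 7.65% and the stalk 0.699% to 1.04%, each lowest in a control pre-Baso library and highest in the first deficient basophil library. As a share of bases assigned to protein-coding genes, which does not scale by length, the members took 5.82% and 5.71%, 7.38% and 6.59%, 6.83% and 6.68%, and 7.59% and 6.56% in the same order of groups. On that scale too control pre-Baso lay lowest, but deficient pre-Baso no longer lay below the basophil libraries. The protein-coding total, 186689 to 223601 TPM per library, includes abundant basophil markers that differ between groups. In the same order Prss34 stood at 19820 and 25020, 22153 and 18974, 2667 and 4617, and 5643 and 9494 TPM. Mcpt8 stood at 6244 and 7888, 4.08 and 6.04, 969 and 1400, and 2.73 and 1.98 TPM. Their part in the members' share was not tested.

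**Figure D1:**
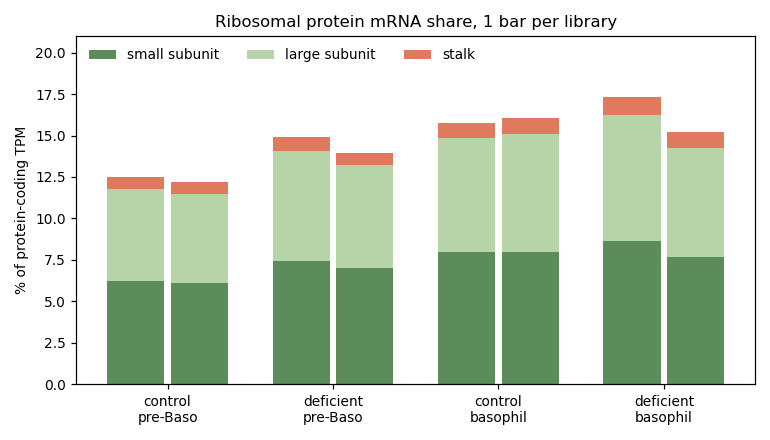
Share of protein-coding TPM, in percent, taken by 80 ribosomal protein genes in each of 8 libraries, 1 bar per library, divided into small subunit, large subunit and stalk. The 2 control pre-Baso bars, at 12.5% and 12.2%, are the lowest, and the first deficient basophil bar, at 17.3%, is the highest.

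The comparison of basophils with pre-Baso in control mice asks how the genes change as the cells mature. Fewer cells of a type and less RNA per cell cannot be told apart in such bulk samples. Of the 85 members 19 rose and 4 fell (limma on log2(TPM + 1), adjusted over all 12511 genes and called at an adjusted p under 0.05). Of all tested genes 22.6% were called, 12.6% higher and 10% lower in basophils, and of the members 22.4% rose and 4.71% fell. Among the 246 tested protein-coding genes with a mean of at least 100 TPM, 31.7% rose and 18.3% fell. The members' median log2 change was 0.18, with 61 of 85 above 0, against 0.08 for all tested genes and 0.13 for the abundant protein-coding genes. In 45 members (52.9%) both basophil libraries lay above both pre-Baso libraries and in 16 (18.8%) below, against 36.4% and 26.3% of all genes. The share that rose was therefore above that of all genes and below that of genes of like abundance, and the share that fell was below both.

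The size of the median depends on the scaling. When libraries were scaled to 1 median ratio over genes, the median of protein-coding genes moved from 0.09 to 0.0031, the median of members from 0.18 to 0.07, and the calls were 13 higher and 5 lower, with 1454 genes higher and 1731 lower over all genes. The counts of members also rest on single libraries, without which the share of all genes called is not given here. They fell to 10 members without the first control pre-Baso library and to 11 without the second control basophil library. Without the first control basophil library, the one with eosinophil markers, 10 members were called: Rps23, Rps27, Rps9, Rpl13a, Rpl37a, Rpl27a and Rplp1 rose and Rpl22l1, Rpl29 and Rpl3 fell. The other members called in the full fit kept their sign without it, with adjusted p from 0.0543 (Rpl15) to 0.202 (Rpl30), and among them were 0.0738 (Rps14), 0.0981 (Rps13), 0.0577 (Rpl38), 0.141 (Rpl7) and 0.177 (Rpl11).

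Of the small-subunit core genes 6 of 31 rose and none fell. Rps23, which lies at the decoding centre where codons are read, stood at 78.7 and 94.2 TPM in control pre-Baso, 100.4 and 98.6 TPM in deficient pre-Baso, 234.2 and 205.6 TPM in control basophils, and 211.7 and 149.9 TPM in deficient basophils. All 4 basophil libraries lay above all 4 pre-Baso libraries. Its log2 change in control mice was the highest of the members, 1.34 ± 0.18 (SE; adjusted p = 0.00217), but on coding transcripts alone it turns, as given below.

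Rps27 stood at 1095 and 1459 TPM in control pre-Baso, 1551 and 1232 TPM in deficient pre-Baso, 2353 and 2424 TPM in control basophils, and 2080 and 1837 TPM in deficient basophils. The basophil libraries were again above every pre-Baso library, with the control basophils highest. The log2 change in control mice was 0.92 ± 0.16 (adjusted p = 0.00555).

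Rps9, a small-subunit protein that affects the accuracy of decoding, stood at 420.9 and 462.5 TPM in control pre-Baso, 461.8 and 465.9 TPM in deficient pre-Baso, 763.2 and 706.1 TPM in control basophils, and 624.8 and 644.6 TPM in deficient basophils. The 4 groups' order was control pre-Baso, deficient pre-Baso, deficient basophils and control basophils, with overlap only between the pre-Baso groups. It rose by 0.73 ± 0.11 in control mice (adjusted p = 0.00253).

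Rps13 and Rps14, also of the small subunit, rose as well. Rps14 stood at 1071 and 1197 TPM in control pre-Baso and at 1619 and 1595 TPM in control basophils, so the groups did not overlap.

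Of the large-subunit core genes 12 of 43 rose and 3 fell. Rpl13a, which in human myeloid cells can leave the ribosome to silence inflammatory mRNAs, stood at 865.4 and 1048 TPM in control pre-Baso, 1193 and 1022 TPM in deficient pre-Baso, 1864 and 2146 TPM in control basophils, and 1996 and 1323 TPM in deficient basophils. The basophil libraries lay above the pre-Baso libraries, and the 2 deficient basophil libraries were far apart. Its log2 change in control mice was 1.07 ± 0.19 (adjusted p = 0.00675). Only 46.3% of its TPM lay on coding transcripts, and on these alone the change was -1.10 (adjusted p = 0.428), which turns the direction and ends the call. The 1047-base coding transcript stood at 776.5 and 694.8 TPM in control pre-Baso and at 831.5 and 129.9 TPM in control basophils. The turned direction thus rests on the second control basophil library.

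Rpl37a, a small zinc-binding protein of the large subunit, stood at 452.1 and 534.6 TPM in control pre-Baso and at 820.1 and 812.3 TPM in control basophils. It stood at 620.5 and 569.4 TPM in deficient pre-Baso and at 822.3 and 691.7 TPM in deficient basophils, again without overlap between populations. The log2 change of 0.73 ± 0.13 in control mice (adjusted p = 0.00613) stayed called under each of the 19 alternatives tried.

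Rpl38, which in mouse embryos is needed for the translation of Hox mRNAs, stood at 618.5 and 704.7 TPM in control pre-Baso, 862.5 and 781.2 TPM in deficient pre-Baso, 989.1 and 959.4 TPM in control basophils, and 932.3 and 893.4 TPM in deficient basophils. It rose by 0.56 ± 0.11 in control mice (adjusted p = 0.00858), and its deficient pre-Baso libraries lay between the control groups. The other large-subunit genes that rose were Rpl7, Rpl11, Rpl17, Rpl24, Rpl27a, Rpl30, Rpl34, Rpl36 and Rpl37. Many of these calls depend on the setting. Of 19 alternatives the call held under 8 for Rpl24, 9 for Rpl17, and 10 for Rpl7 and for Rpl30. It held under 13 for Rpl34 and for Rpl37, 15 for Rpl36 and 18 for Rpl27a. Rpl11, which with Rpl5 and 5S RNA binds Mdm2 and so links the ribosome to p53, rose by 0.43 ± 0.13 (adjusted p = 0.0431), and Rpl5 had a log2 change of 0.38 ± 0.13 (adjusted p = 0.0738). The Rpl11 call held under 6 of 19 alternatives, with adjusted p from 0.00582 to 0.177, and ended with median-ratio scaling (adjusted p = 0.0937) and with the replicate block (adjusted p = 0.0709) among others.

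The stalk recruits elongation factors to the ribosome, and its 3 genes did not share 1 result. Rplp1 stood at 638.3 and 701.7 TPM in control pre-Baso, 773.1 and 704.7 TPM in deficient pre-Baso, 1047 and 1006 TPM in control basophils, and 1031 and 949.5 TPM in deficient basophils. It rose by 0.62 ± 0.11 in control mice (adjusted p = 0.00542), a call kept under each of the 19 alternatives. The log2 change was 0.19 ± 0.12 for Rplp0 (adjusted p = 0.309) and -0.23 ± 0.17 for Rplp2 (adjusted p = 0.354).

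**Figure D2:**
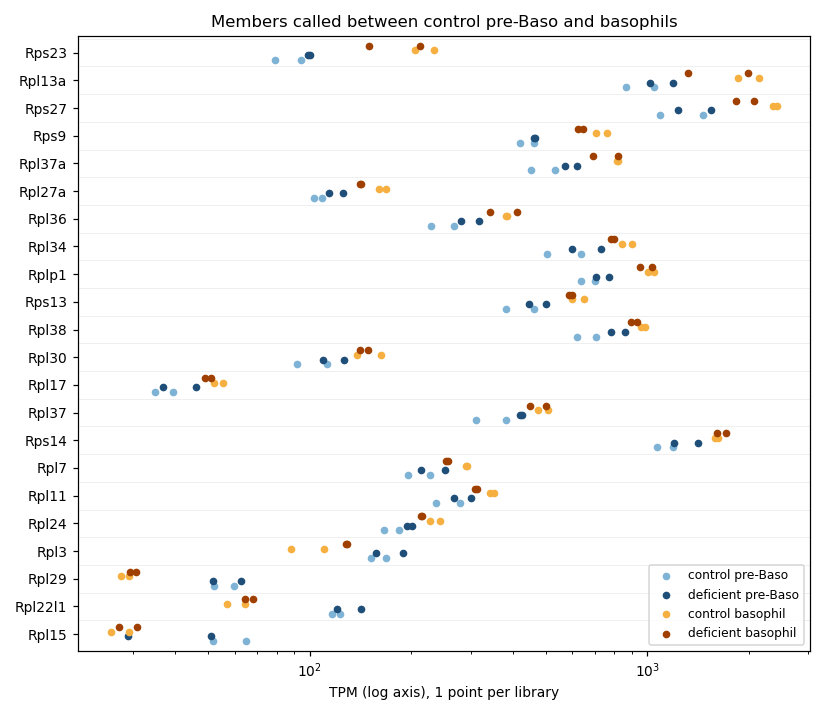
TPM of 22 members called between control pre-Baso and control basophils, on a log axis, with 1 point per library and 1 colour per group. For Rps23, Rps27 and Rpl13a all basophil points lie to the right of all pre-Baso points, while for Rpl29 and Rpl22l1 they lie to the left.

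The 4 genes that fell were Rpl22l1, Rpl29, Rpl15 and Rpl3. Rpl22l1 is the paralog of Rpl22, an RNA-binding protein of the large subunit, and both are known for roles in blood cell development. Rpl22l1 stood at 116.6 and 122.9 TPM in control pre-Baso, 141.8 and 120.8 TPM in deficient pre-Baso, 64.4 and 56.9 TPM in control basophils, and 64.5 and 68.1 TPM in deficient basophils. Every basophil library lay below every pre-Baso library. The log2 change in control mice was -0.97 ± 0.14 (adjusted p = 0.00274) and was called under each of the 19 alternatives, with values between -1.15 and -0.88.

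Rpl22 itself went the other way without passing the test. It stood at 145.7 and 180.6 TPM in control pre-Baso and at 229.1 and 201.3 TPM in control basophils, a log2 change of 0.40 ± 0.28 (adjusted p = 0.341). In deficient mice it stood at 183.5 and 92.8 TPM in pre-Baso and at 237.0 and 212.8 TPM in basophils. The ratio of the gene sums of Rpl22l1 and Rpl22 was therefore lower in basophils of both genotypes, in values that were not tested as a ratio. Only 10.6% of the TPM of Rpl22 lay on coding transcripts, and these went down. The 2051-base one stood at 12.3 and 8.93 TPM in control pre-Baso and 6.52 and 7.10 TPM in control basophils. In deficient mice it stood at 16.1 and 33.1 TPM and then at 5.08 and 11.7 TPM. The opposite direction of Rpl22 therefore holds for the gene sum and not for its coding transcripts.

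Rpl29, a large-subunit protein also known as a heparin-binding protein, stood at 51.9 and 59.6 TPM in control pre-Baso, 62.7 and 51.8 TPM in deficient pre-Baso, 29.1 and 27.6 TPM in control basophils, and 30.5 and 29.4 TPM in deficient basophils. Its log2 change in control mice was -0.95 ± 0.16 (adjusted p = 0.0044). The fall lay in 1 of its transcripts: the 733-base coding transcript stood between 28.9 and 35.2 TPM in the 4 pre-Baso libraries and at 0 in all 4 basophil libraries, and the 845-base one stood between 21.7 and 30.5 TPM throughout. With the TPM of its 32 pseudogene copies added, the change was -0.03 ± 0.15 (adjusted p = 0.889), which ends the call.

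Rpl15, a large-subunit protein mutated in some cases of Diamond-Blackfan anaemia, stood at 51.6 and 64.6 TPM in control pre-Baso, 50.9 and 28.9 TPM in deficient pre-Baso, 29.2 and 25.8 TPM in control basophils, and 30.9 and 27.3 TPM in deficient basophils. Its log2 change in control mice was -1.05 ± 0.25 (adjusted p = 0.021). An 883-base transcript was listed at 0 in all 4 basophil libraries and in the second deficient pre-Baso library, and the 1922-base one was not. With its 12 copies added the change was -0.06 ± 0.13 (adjusted p = 0.782), and by assigned bases it was -0.38 (adjusted p = 0.129).

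Rpl3, a protein next to the peptidyl transferase centre, stood at 151.6 and 168.7 TPM in control pre-Baso and 109.9 and 88.0 TPM in control basophils. It stood at 189.4 and 157.7 TPM in deficient pre-Baso and 128.2 and 128.7 TPM in deficient basophils. The log2 change of -0.70 ± 0.16 in control mice (adjusted p = 0.0159) was -0.67 ± 0.14 with its copies added (adjusted p = 0.0122). It was -0.54 (adjusted p = 0.0999) without the second control basophil library, which ends the call.

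The median length of the coding transcript was 661 bases for the 19 core genes that rose, 878 bases for the 55 not called and 1351 bases for the 3 that fell. The ranges overlapped, with 345 to 1326 bases for those that rose and 390 to 5179 bases for those not called, and the paralog Rpl22l1, which fell, has 552 bases. These are descriptions of lists formed by the result itself, and they carry no test. Other genes known for particular roles were not called: Rps6, the S6 kinase target, had a log2 change of 0.18 ± 0.14 (adjusted p = 0.401), and Rps19, the gene most often mutated in Diamond-Blackfan anaemia, -0.10 ± 0.16 (adjusted p = 0.694). Rps24 had 0.00 ± 0.13 (adjusted p = 0.99) and Rpl10, which joins the large subunit late, -0.12 ± 0.13 (adjusted p = 0.55).

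Markers of other cell types moved with maturation. In control mice, from pre-Baso to basophils, 6 neutrophil markers summed to 797 and 689 TPM and then to 2274 and 1271 TPM, and 5 monocyte markers to 173 and 199 TPM and then to 794 and 347 TPM. The 6 erythroid markers went from 31.4 and 39.1 TPM to 159.7 and 132.7 TPM, and the 6 eosinophil markers from 96.7 and 32.6 TPM to 2570 and 30.7 TPM. Progenitor markers went from 1026 and 1101 TPM to 173 and 129.8 TPM, and basophil markers from 28194 and 35078 TPM to 5269 and 7564 TPM. Most of the basophil sum was Prss34 (19820 and 25020 TPM, then 2667 and 4617 TPM) and Mcpt8 (6244 and 7888 TPM, then 969 and 1400 TPM). Of the 10 basophil markers 4 had a log2 change above 0, among them Hdc (70.6 and 95.2 TPM, then 155.2 and 155.5 TPM), and 6 below. T and NK markers went from 156 and 186 TPM to 67.3 and 54.2 TPM with 5 of 6 below a TPM of 1 in every library, and B cell markers from 12.1 and 13.6 TPM to 21.04 and 19.3 TPM with Ms4a1 and Pax5 below 1 in every library. The part of these cells in the ribosomal protein values was not tested.

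The same comparison in deficient mice gave fewer calls. Of the 85 members 3 rose (Rps23, Rps9, Rplp1) and 2 fell (Rpl22l1, Rpl29). Of all tested genes 10.9% were called, 6.79% higher and 4.11% lower, and of the members 3.53% rose and 2.35% fell, so the members' shares lay below the background. The members' median log2 change was 0.06 with 52 of 85 above 0, against 0.10 for all tested genes and 0.06 for the abundant protein-coding genes. Both basophil libraries lay above both pre-Baso libraries in 29 members (34.1%) and below in 14 (16.5%), against 36.6% and 21.7% of all genes. With median-ratio scaling the median was -0.12 and 6 members were called, all of them lower, while the median of protein-coding genes moved from 0.13 to -0.00041. The share of all genes called under this scaling is not given here, so this count is not read as particular to the members. With the samples of like replicate number treated as a block the calls were 1 higher and 2 lower.

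Rps23 rose by 0.83 ± 0.18 (adjusted p = 0.0282), Rps9 by 0.45 ± 0.11 (adjusted p = 0.0328) and Rplp1 by 0.42 ± 0.11 (adjusted p = 0.0402). Of 19 alternatives the call held under 12 for Rps23, 8 for Rps9 and 8 for Rplp1. With median-ratio scaling all of these rises lost the call in limma (adjusted p = 0.0665, 0.121 and 0.256 in that order). Rpl22l1 had a log2 change of -0.97 ± 0.14 (adjusted p = 0.00791) and Rpl29 of -0.91 ± 0.16 (adjusted p = 0.0127), and the latter was -0.07 ± 0.15 with its copies added (adjusted p = 0.795). No member was called without the first deficient pre-Baso library, where only 19 genes were called in all, nor without the first deficient basophil library. Without the second deficient pre-Baso library 2 members were called, without the second deficient basophil library 3, and without either control basophil library, which changes only the shared spread, 3. From deficient pre-Baso to deficient basophils the neutrophil marker sum went from 1122 and 807 TPM to 2009 and 1205 TPM, the monocyte sum from 274.6 and 258.3 TPM to 750.9 and 399.4 TPM and the eosinophil sum from 33.3 and 14.7 TPM to 184.7 and 28.2 TPM. The erythroid sum went from 27.5 and 111.1 TPM to 150 and 126.4 TPM, the progenitor sum from 2093 and 1680 TPM to 454.1 and 705.3 TPM and the basophil sum from 23956 and 20848 TPM to 6964 and 11029 TPM. Most of the basophil sum was Prss34 (22153 and 18974 TPM, then 5643 and 9494 TPM). Of the 10 basophil markers 5 had a log2 change above 0 and 5 below. The B cell sum went from 20.1 and 16.4 TPM to 35.3 and 17.8 TPM and the T and NK sum from 177.6 and 129.5 TPM to 55.2 and 76.6 TPM, and the part of these cells was not tested.

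All 5 members called in deficient mice were also called in control mice in the same direction, which is 100% of the first list and 21.7% of the second. Over all tested genes the shares were 86.2% of the genes called in deficient mice and 41.5% of those called in control mice. The 2 comparisons share no library. Among the 23 members called in control mice all had the same sign in deficient mice and a smaller size there. Of all genes called in control mice 98.1% had the same sign in deficient mice and 87.9% the same sign and a smaller size. Since these genes were chosen for their values in control mice, this is a description, and it is not particular to the members. Over all 85 members Pearson's r between the 2 sets of log2 changes was 0.87, a value across genes, which are not independent replicates and partly share reads, and over all tested genes it was 0.78.

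**Figure D3:**
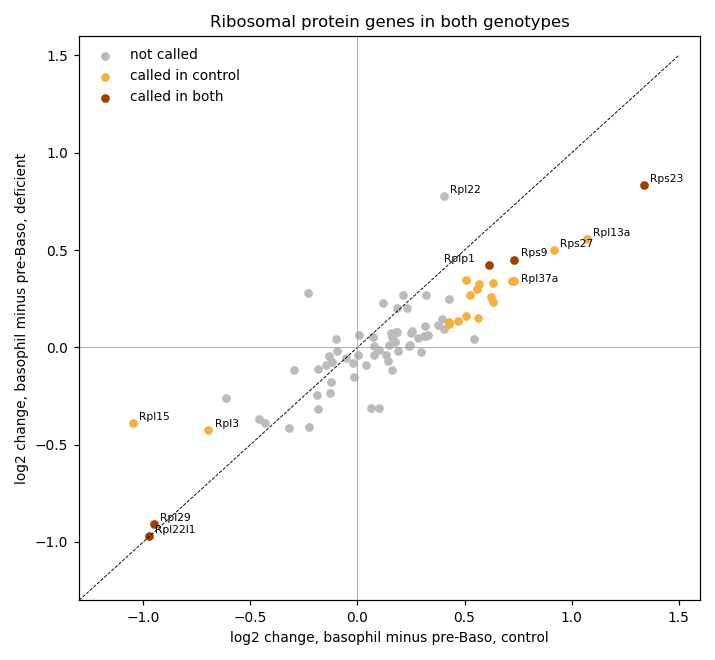
Log2 change from pre-Baso to basophils in control mice (horizontal axis) and in deficient mice (vertical axis), 1 point per ribosomal protein gene, without Rpl23a, with the line of equal change dashed. The members that rose in control mice lie above 0 and below the line, and Rpl22l1 and Rpl29 lie near the line at about equal falls.

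The difference between the 2 maturation changes, which is the interaction of genotype and population, was not called for any member or for any of the 12511 genes (0% by limma). At an unadjusted p under 0.05, 1 member was lower and none higher, against 1.82% and 3.68% of all genes. That member was Rpl38, with an interaction of -0.41 ± 0.15 (adjusted p = 0.897). The next smallest p-values belonged to Rpl27a (-0.40 ± 0.17, adjusted p = 0.897) and Rplp2 (0.51 ± 0.23, adjusted p = 0.901). The median over members was -0.15 with 20 of 85 above 0, against 0.03 for all tested genes and -0.10 for the abundant protein-coding genes, 83 of 246 of them above 0. A smaller maturation change in deficient mice was thus not established for any single gene.

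The comparison of genotypes within pre-Baso asks whether the precursors differ without Nfil3. No member was called by limma, and 0.0639% of all genes were. The differences were small and mostly of 1 sign: 76 of 85 were above 0, with a median log2 change of 0.15, against -0.04 for all tested genes and 0.02 for the abundant protein-coding genes. At an unadjusted p under 0.05, 6 members (7.06%) were higher and none lower, against 1.63% and 2.75% of all genes. In 28 members (32.9%) both deficient libraries lay above both controls and in 2 (2.35%) below, against 11.2% and 19.3% of all genes. By subunit 30 of 31 small-subunit core genes, 37 of 43 large-subunit core genes and 2 of 3 stalk genes were above 0.

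Rpl38 had the smallest p of the members, with a log2 difference of 0.31 ± 0.11 (limma adjusted p = 1), from values given above in which both deficient pre-Baso libraries exceeded both controls.

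The median depends on single libraries. It was 0.06 without the first control pre-Baso library and 0.25 without the second. Leaving out the deficient pre-Baso libraries gave 0.061 for the first and 0.24 for the second. The sign of the members' median held under every setting tried, and it was 0.26 by assigned bases and 0.24 with median-ratio scaling. In deficient pre-Baso the progenitor marker sum was 2093 and 1680 TPM, against 1026 and 1101 TPM in control pre-Baso. This difference lay in Ctsg, at 1857 and 1486 TPM against 745 and 841 TPM. Of the 5 tested progenitor markers the other 4 had a log2 difference below 0. The neutrophil and monocyte sums given above were also higher in both deficient libraries than in both controls. The part of such cells in the values of the members was not tested.

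**Figure D4:**
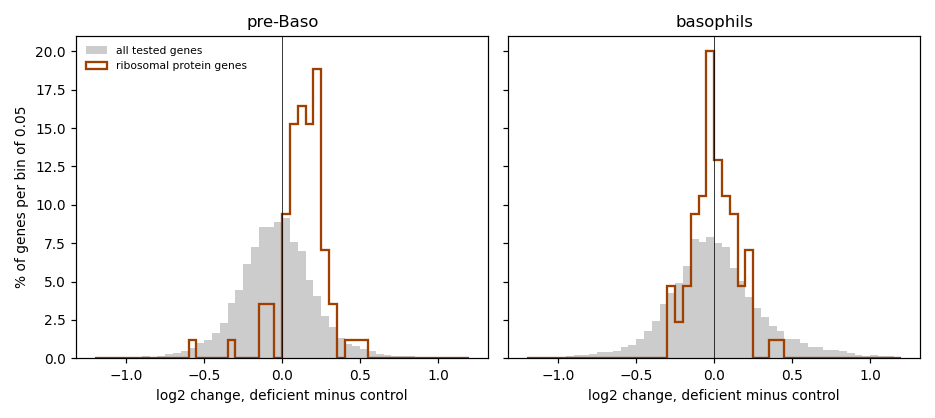
Distribution of log2 differences between deficient and control cells in pre-Baso (left) and basophils (right), as the percent of genes in each bin of 0.05, for all 12511 tested genes (grey) and 85 ribosomal protein genes (line). In pre-Baso the members centre at 0.15, to the right of all genes, and in basophils they centre near 0.

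In basophils no member was called between genotypes (0.056% of all genes, limma), 40 of 85 were above 0 and the median was -0.01, as it was for all tested genes, and -0.07 for the abundant protein-coding genes. At an unadjusted p under 0.05, 2 members (2.35%) were higher and none lower, against 4.91% and 3.6% of all genes. Both deficient libraries lay above both controls in 12 members (14.1%) and below in 14 (16.5%), against 17.2% and 21.4% of all genes. The smallest p-values belonged to Rplp2 and Rpl3. Rplp2 stood at 345.9 and 354.7 TPM in control and 475.8 and 457.1 TPM in deficient basophils, a log2 difference of 0.41 ± 0.17 (adjusted p = 0.544). Rpl3, from the values given above, had 0.38 ± 0.16 (adjusted p = 0.561), and Rps9 had -0.21 ± 0.11 (adjusted p = 0.643).

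Averaged over both populations no member was called (0.0879% of all genes, limma), 65 of 85 (76.5%) were above 0 and the median was 0.07, against 45.8% and -0.02 for all tested genes. At an unadjusted p under 0.05, 3 members were higher and none lower, against 3.3% and 4.14% of all genes. Rpl13 (0.21 ± 0.09, adjusted p = 0.66) and Rpl36a (0.25 ± 0.10, adjusted p = 0.66) were among them.

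The paralogs are given here beside their parent genes. Rps27l, a target of p53 whose product can replace that of Rps27, stood at 128.0 and 134.7 TPM in control pre-Baso and 109.0 and 83.0 TPM in control basophils. It stood at 143.8 and 128.2 TPM in deficient pre-Baso and at 106.8 and 103.2 TPM in deficient basophils. Its log2 change was -0.46 ± 0.16 (adjusted p = 0.0694) in control and -0.37 ± 0.16 (adjusted p = 0.171) in deficient mice, while Rps27 rose in control mice. Rpl7l1, which acts in ribosome assembly, stood between 8.65 and 12.02 TPM in all libraries, with -0.18 ± 0.17 (adjusted p = 0.472) in control mice. Rpl7 rose there by 0.47 ± 0.13 (adjusted p = 0.0367), a call that held under 10 of 19 alternatives. The difference between a paralog and its parent was not tested.

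Whether reads of a pair can be kept apart depends on how far the sequences differ. The first 120 coding bases of Rps27 and Rps27l, read from the GENCODE M21 annotation of GRCm38, are shown with the bases that differ in capitals.
Rps27: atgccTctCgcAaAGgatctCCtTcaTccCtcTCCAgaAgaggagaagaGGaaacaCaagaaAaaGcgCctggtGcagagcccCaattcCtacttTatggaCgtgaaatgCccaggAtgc
Rps27l: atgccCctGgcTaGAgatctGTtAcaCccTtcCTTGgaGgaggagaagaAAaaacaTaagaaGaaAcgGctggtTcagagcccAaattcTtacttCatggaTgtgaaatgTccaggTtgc

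These stretches differ at 28 bases and the whole 255-base coding sequences at 61, an identity of 76.1%. The identity was 67.5% for Rpl22 and Rpl22l1 and 54.5% for Rpl7 and Rpl7l1. No processed pseudogene matched Rps27l, and 4 matched Rps27.

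Many reads that fit these genes were listed under pseudogenes. A pseudogene transcript was counted as a copy when at least 80% of its length aligned to a member at 95% identity or more. There were 597 such copies, and 78 of 80 core genes and paralogs had at least 1. The copies summed to 28823 to 39697 TPM per library, and the members held 44.3% to 46.3% of the sum of both. In 52 of 80 genes the copies held more TPM than the gene itself, and the median gene held 40.2% of the sum. Rpl17 held 3.99% and Rpl15 7.16%, while Rps27 held 68.7% and Rplp1 84.1%.

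The rise of the called genes was also present in their copies. Copies were chosen for near identity to the gene, so both can draw on the same reads. A sum with copies also contains the gene itself, so these values are not independent support for the rise. The 11 copies of Rps23, which itself held 12.5% of the sum, summed to 652.8 and 798.6 TPM in control pre-Baso and to 1415 and 1266 TPM in control basophils. With copies added the log2 change of Rps23 was 0.95 ± 0.12 (adjusted p = 0.00151), that of Rpl13a 0.98 ± 0.17 (adjusted p = 0.00492) and that of Rps27 0.95 ± 0.15 (adjusted p = 0.00323). In all 20 members rose and 2 fell with copies added, the latter Rpl22l1 (-0.92 ± 0.15, adjusted p = 0.00429) and Rpl3. The share of all genes called in that fit is not given here. Absolute levels of single members, and comparisons of level between members, are uncertain for the same reason.

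**Figure D5:**
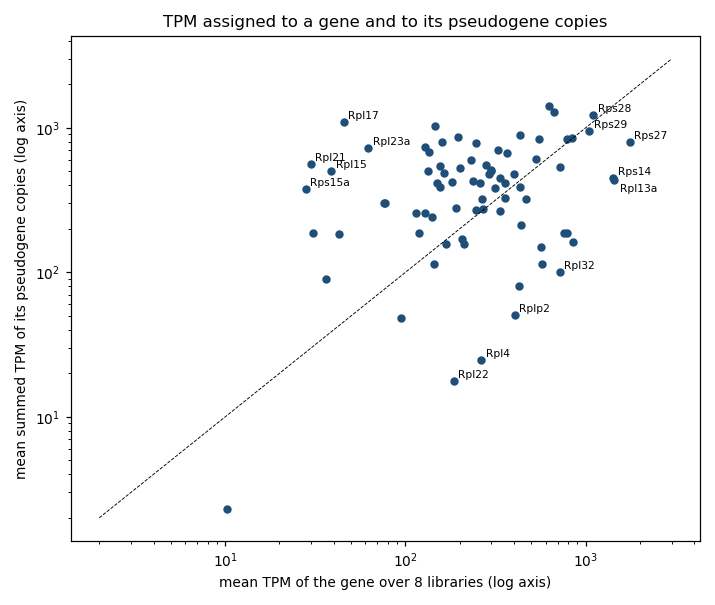
Mean TPM over 8 libraries of each core gene or paralog with at least 1 copy (horizontal, log axis) and the mean summed TPM of its pseudogene copies (vertical, log axis), with the line of equal level dashed. Rpl17, Rpl15, Rpl21 and Rps15a lie far above the line, and Rpl4, Rpl22 and Rpl32 below it.

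The split of a gene among its transcripts was less stable than its sum. Of 85 members 57 had at least 2 transcripts above 10% of the gene, and in 24 a transcript held less than 10% in 1 library and more than 50% in another. Rps23 was assigned to its 937-base coding transcript in all 4 pre-Baso libraries. In basophils its first replicates of both genotypes, at 234.2 and 211.7 TPM, lay on a 658-base processed transcript, and its second replicates, at 205.6 and 149.9 TPM, on the coding one. On coding transcripts alone its log2 change in control mice was -2.58 (adjusted p = 0.529), which turns the direction and ends the call. This value rests on the first control basophil library, where the coding transcript was listed at 0, while in the second it stood above every pre-Baso library.

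For Rps27a, a fusion of ubiquitin and a small-subunit protein, the split went with the replicate number in each group. Its 565-base processed transcript held 89.1 and 0 TPM in control pre-Baso, 112.0 and 0 TPM in deficient pre-Baso, 161.8 and 0 TPM in control basophils and 116.8 and 0 TPM in deficient basophils. Of the 80 core genes and paralogs 53 had over 90% of their TPM on coding transcripts and 3 had 10% or less. The values tested here are sums over transcripts.

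Genes of the same program outside the name rule were given as lists. Of 20 other ribosomal and TOP genes 5 rose and 2 fell in control mice and 2 rose and 1 fell in deficient mice. As background for this list and the next ones, 12.6% of all tested genes rose and 10% fell in control mice. In deficient mice 6.79% rose and 4.11% fell. Fau, which encodes a small-subunit protein as a fusion, stood at 713.6 and 878.7 TPM in control pre-Baso and 1382 and 1403 TPM in control basophils and rose by 0.81 ± 0.12 (adjusted p = 0.00253). Eif3f, a subunit of initiation factor eIF3, rose by 0.72 ± 0.15 (adjusted p = 0.0117), and Eif4b, an initiation factor, by 0.62 ± 0.16 (adjusted p = 0.0286). The 2 that fell were Nap1l1, a nucleosome assembly factor, by 1.30 ± 0.26 on the log2 scale (adjusted p = 0.0105), and Rpl36al, a copy of Rpl36a, with -0.50 ± 0.15 (adjusted p = 0.0472). In deficient mice Fau (0.47 ± 0.12, adjusted p = 0.0375) and Eif3f (0.64 ± 0.15, adjusted p = 0.0336) rose and Rpl36al fell (-0.61 ± 0.15, adjusted p = 0.0402).

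Of 8 tested chaperones and assembly factors of ribosomal proteins all had a negative log2 change in control mice, with a median of -0.31. Over all tested genes 5434 of 12511 were below 0, and the median was 0.08. Only Ltv1, which acts in small-subunit assembly, was called, at -0.79 ± 0.24 (adjusted p = 0.0499), from library values near the filter (2.3 and 4.0 TPM to 1.3 and 1.4 TPM). Of 16 tested genes that control ribosomal protein mRNAs 4 rose in control mice and 3 in deficient mice and none fell. Max, the partner of Myc, rose by 1.54 ± 0.17 in control mice (adjusted p = 0.00092) and by 0.80 ± 0.17 in deficient mice (adjusted p = 0.0275). Myc rose by 0.84 ± 0.22 (adjusted p = 0.0277) and 1.07 ± 0.22 (adjusted p = 0.0228), from 4.1 and 5.7 TPM in control pre-Baso to 8.8 and 10.3 TPM in control basophils. Eif4ebp1, which blocks initiation until mTOR phosphorylates it, rose by 1.30 ± 0.26 in control mice (adjusted p = 0.0102), and Eif4ebp2 rose in both genotypes.

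Of 7 tested genes of the p53 response to faulty ribosome assembly, which are Trp53 itself and targets of p53, 1 rose in control mice. It was the apoptosis gene Bbc3 (0.88 ± 0.18, adjusted p = 0.012), and none rose in deficient mice. Cdkn1a, a cell cycle inhibitor, had -1.15 ± 0.41 (adjusted p = 0.0811). No gene of these 4 lists was called between genotypes in pre-Baso or in the interaction.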

How the data were processed

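Total RNA of 8 sorted samples was made into libraries with a SMARTER kit for mRNA, per the labels' protocols, and reads were aligned with HISAT2 to mm10, per the submitters' processing notes. The authors quantified transcripts with StringTie 2.1.4 on Ensembl release 101 for annotated transcripts only and with no strand option, per the file headers. The deposited files give TPM, FPKM and coverage per transcript and no counts. Reads from overlapping genes on opposite strands therefore cannot be told apart.

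Here TPM was summed per gene identifier, the name being taken from any library, since 22348 to 41539 of 142699 transcript lines per library lack one. Genes reaching a TPM of 1 in 2 or more libraries entered a fit of log2(TPM + 1), where low genes show too small a change, with limma 3.58.1 (trend) in R 4.3.3, two-sided: 1 mean per group, 4 residual degrees of freedom, 6 contrasts, Benjamini-Hochberg adjustment within each over all genes. Each TPM is relative to all RNA of its library. The fit was checked on simulated data. Copies were found with blastn 2.17.0 among GENCODE M21 pseudogene transcripts. Biotypes came from the same annotation, promoters from RefSeq.

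Members, lists and tests were chosen with earlier results of these data known. Test values are given for the 6 members with the largest change per direction and contrast, or the 3 with the smallest p where none is called, the paralogs and their parents, the 5 highest and lowest members, members with known roles, and called genes of the other lists. The added alternatives (sequence-matched copies, assigned bases, coding transcripts, core members) were chosen after seeing the data. Values of some single genes that the rule allows are not reported here; they stay in the counts, medians and sums.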

Additional observations from a re-analysis of the deposited data

How the results depend on the processing

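The 0 calls between genotypes and in the interaction held under every alternative run. Among the members called with maturation (23 in control and 5 in deficient mice, 28 calls in all) 28 remained with protein-coding rescaling, 19 with median-ratio scaling, 9 without the filter, 16 with only the compared groups fitted, 21 with the replicate block, 25 with sequence-matched copies added and 20 on coding transcripts alone. The count in control mice was 7 without the filter and 14 with only the compared groups, and 10 to 22 when 1 library was left out. In deficient mice it was 11 with protein-coding rescaling, 2 without the filter, 2 with only the compared groups, 3 with the replicate block and 12 by assigned bases, and 0 to 5 when 1 library was left out. The shares of all genes called are not given beside these counts, so a change in a count is not read as particular to the members. Without the filter and with only the compared groups, the tests hold more genes or fewer residual degrees of freedom. For the other settings the cause was not tested. The median of members with maturation became 0.069 in control and -0.12 in deficient mice with median-ratio scaling, and ranged from 0.075 to 0.29 and from -0.046 to 0.15 when 1 library was left out. The genotype median in pre-Baso was 0.26 by assigned bases and 0.061 to 0.25 when 1 library was left out, the genotype mean 0.18 by assigned bases, and the interaction -0.25 to -0.064 when 1 library was left out. On coding transcripts alone Rps23 had -2.58 in control and -3.03 in deficient mice and Rpl13a -1.10 in control mice, none of them called. The summed share by assigned bases was 5.76%, 6.99%, 6.75% and 7.08% in control pre-Baso, deficient pre-Baso, control basophils and deficient basophils. Same-numbered samples of 2 groups had correlations of their deviations between -0.0544 and 0.202 over 12511 genes. The highest was between the 2 basophil groups, and the Rps27a split followed the replicate number in each group. Whether same-numbered samples share a batch was not tested. The fit without a block was kept as the main one. The replicate block, with 18 calls in control and 3 in deficient mice, was run as an alternative. The absence of read counts limits statements on low members.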
